A study of Mus musculus with 20 samples.

Results

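The natriuretic peptide genes Nppa and Nppb were examined together with 8 further genes of the fetal and load-responsive program of heart muscle: Myh6, Myh7, Myh7b, Acta1, Ankrd1, Xirp2, Fhl1 and Rcan1. These 10 genes were chosen by their symbols among the 11856 protein-coding genes of the expression table. All 10 had a mean of at least 1 FPKM (fragments scaled to transcript length and to the size of the library) and were among the 10344 genes tested. The comparison was between 5 db/db and 5 db/+ animals of the C57BL/6 strain. Both groups carry the db allele of the gene for the leptin receptor: db/db mice have 2 copies of it and become obese and diabetic, and db/+ mice have 1 copy and stay lean. The sample titles call the lean animals db/+, while the genotype field calls them wild type, and the titles were followed. The labels give heart as the tissue, with no chamber named, and ages and sexes were not used here. Each of the 10 hearts gave an input RNA library and another of RNA enriched by immunoprecipitation for N6-methyladenosine (m6A), the most common internal methyl mark of messenger RNA, which makes 20 libraries.

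Before birth and again under load, the ventricle of the rodent heart expresses genes that the healthy adult ventricle keeps low: the natriuretic peptides, the slow beta myosin heavy chain and skeletal alpha-actin. In the adult mouse the fast alpha myosin heavy chain, Myh6, takes the place of the beta chain, Myh7, and a higher Myh7 share is a common readout of hypertrophy or failure. Natriuretic peptides are hormones that the atria store and release, and the ventricle adds to them when its wall is stretched.

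Myh6 and Myh7 lie in tandem on the minus strand of chromosome 14 with 3.76 kb between them, and Nppb and Nppa lie in tandem on the plus strand of chromosome 4 with 13.5 kb between them. All 3 myosin genes hold a microRNA inside the gene and on its strand, at chr14:54949072-54949093 (minus) for miR-208a-3p in Myh6, chr14:54975710-54975731 (minus) for miR-208b-3p in Myh7 and chr2:155622893-155622913 (plus) for miR-499-5p in Myh7b. The mature sequences, from RefSeq on GRCm38.p6, are shown because the host genes are compared next. Capitals mark the seed, bases 2 to 8 from the 5′ end.
mmu-miR-208a-3p: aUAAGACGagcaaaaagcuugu
mmu-miR-208b-3p: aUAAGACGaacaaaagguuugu
mmu-miR-499-5p: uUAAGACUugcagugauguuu
The seeds of miR-208a-3p and miR-208b-3p were the same, UAAGACG, and that of miR-499-5p was UAAGACU. The libraries were made from poly(A) messenger RNA and give no level for the mature microRNAs.

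The promoters of the 2 tandem pairs are shown because the levels of their genes are set against each other below. Each is the 250 bases before a start given in RefSeq's promoter windows on GRCm38.p6, written on the strand of the gene: chr4:148000472-148000721 (plus) for Nppa, chr4:147985650-147985899 (plus) for Nppb, chr14:54966608-54966857 (minus) for Myh6 and chr14:54994627-54994876 (minus) for Myh7. Capitals mark every match on either strand to the motifs searched. A pair of them, TGATAA and also the related AGATAA, are sequences that GATA factors bind, and they share their last bases. The M-CAT sequence bound by TEAD factors is written GGAATG in this search. The other motifs were the TATA box, written TATAAA here, and the CArG box of serum response factor.
Nppa promoter: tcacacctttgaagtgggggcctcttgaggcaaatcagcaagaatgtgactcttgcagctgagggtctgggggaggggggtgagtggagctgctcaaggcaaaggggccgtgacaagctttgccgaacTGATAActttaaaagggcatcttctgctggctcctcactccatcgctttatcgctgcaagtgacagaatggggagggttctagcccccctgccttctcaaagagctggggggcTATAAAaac
Nppb promoter: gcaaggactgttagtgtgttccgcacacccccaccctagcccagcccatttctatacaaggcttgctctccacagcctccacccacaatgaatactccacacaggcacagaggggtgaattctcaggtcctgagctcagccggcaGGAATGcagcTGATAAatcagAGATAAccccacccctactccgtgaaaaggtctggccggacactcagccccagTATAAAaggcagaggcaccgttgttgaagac
Myh6 promoter: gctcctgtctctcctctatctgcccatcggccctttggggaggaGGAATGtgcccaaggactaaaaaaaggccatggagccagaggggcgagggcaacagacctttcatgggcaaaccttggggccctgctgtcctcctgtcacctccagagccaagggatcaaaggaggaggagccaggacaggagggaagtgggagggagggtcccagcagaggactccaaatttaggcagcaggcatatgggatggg
Myh7 promoter: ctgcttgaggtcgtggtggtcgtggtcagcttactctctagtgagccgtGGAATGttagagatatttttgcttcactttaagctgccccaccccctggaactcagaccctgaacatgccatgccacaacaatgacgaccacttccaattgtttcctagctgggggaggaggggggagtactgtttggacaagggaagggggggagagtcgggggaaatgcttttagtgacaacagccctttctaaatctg
The Nppa window held TGATAA from -122 to -117 and TATAAA from -9 to -4, counted from that start. The Nppb window held GGAATG from -105 to -100, TGATAA from -95 to -90, AGATAA from -84 to -79 and TATAAA from -31 to -26. The Myh6 and Myh7 windows each held a single match, GGAATG, from -206 to -201 in Myh6 and from -201 to -196 in Myh7. Over the 10 genes, with 1 window each, GGAATG was in 5 windows (Acta1, Ankrd1, Myh6, Myh7 and Nppb), against 12.6% of the 32851 windows of this length in RefSeq. TATAAA was in 4 windows, against 12.4% of all, AGATAA in 3, against 9.99%, TGATAA in 2, against 7.94%, and the CArG box in 2 (Acta1 and Fhl1), against 1.47%. These matches describe letters only. The start used lies 112 bases from the gene start of the expression table for Nppb and 320 bases for Myh6, and for both it is inside the bounds that RefSeq gives the gene, so those windows depend on which start is taken. The Fhl1 window, the nearer of 2, lies 47896 bases into the gene, so its TATAAA and CArG matches are those of an inner start.

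The libraries differed in ways that touch these genes. The values are FPKM without counts, and the sequencing depth cannot be read from them. Mitochondrial transcripts took 43.6% ± 1.23 of the listed FPKM in db/db hearts and 39.5% ± 3.76 in db/+ hearts (SD, n = 5 each, exact two-sided permutation p = 0.0317), and the heart db/+ 5 had the lowest share, 33.5%. That heart also had the longest peak list (20021 distinct m6A peaks) and db/db 5 the shortest (8462). Heart muscle markers stood high in every heart, with a summed 4214 to 4945 FPKM over 6 cardiomyocyte markers in db/db hearts and 4404 to 5243 FPKM in db/+ hearts, and the skeletal muscle markers Myh1, Myh2, Myh4, Actn3 and Tnnc2 were not listed, with a sum of at most 4.78 FPKM over the other 4 of that list. Of the markers of other cells, none of 5 smooth muscle, 6 fibroblast, 6 endothelial and 6 macrophage genes was called, none of 5 lymphocyte genes was listed, and of 6 adipocyte genes Cfd fell (log2 fold change -2.89, adjusted p = 0.0411), with a summed adipocyte level of 10.95 to 81.8 FPKM in db/db hearts and 21.6 to 266 FPKM in db/+ hearts. Of those 6, Lep alone had a positive log2 fold change (1.43, adjusted p = 0.086), with 0.343 to 7.14 FPKM in db/db hearts and 0 to 0.629 FPKM in db/+ hearts. In all, 311 genes (3.01% of those tested) were called at an adjusted p under 0.05, 133 higher and 178 lower in db/db hearts. The share of called genes that were higher, 42.8%, became 58.9% with library medians set equal, 57.3% without the mitochondrial genome and 55.4% after quantile normalization.

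None of the 10 genes was called (limma with Benjamini-Hochberg adjustment over all genes), against the 3.01% of all tested genes, and 2 of them, Myh7b and Myh6, had an unadjusted p under 0.05, as did 19.3% of all tested genes. The log2 fold change, db/db over db/+ on FPKM + 1, was positive for Nppa, Nppb and Fhl1 and negative for the other 7, with a median of -0.04 over the 10 genes and -0.03 over all tested genes. For 1 of the 10, Myh6, no db/db value overlapped a db/+ value at the deposited scaling. Such a gap was found for 6.41% of all tested genes, and for 4.18% with the lower values in db/db hearts. Averaged over the 10 hearts, the levels ran from Myh6 (1996 FPKM) and Nppa (1403 FPKM) through Ankrd1 (596 FPKM), Acta1 (114 FPKM), Nppb (112 FPKM), Xirp2 (71.5 FPKM), Myh7 (65.5 FPKM), Rcan1 (25.6 FPKM) and Fhl1 (22.0 FPKM) to Myh7b (6.87 FPKM). Ranges over hearts did not overlap at 3 steps of this order, below Ankrd1, Myh7 and Fhl1. Acta1 and Nppb stood next to each other and in no fixed order: Acta1 was the higher in 1 of 5 db/db hearts and in 5 of 5 db/+ hearts.

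**Figure D1:**
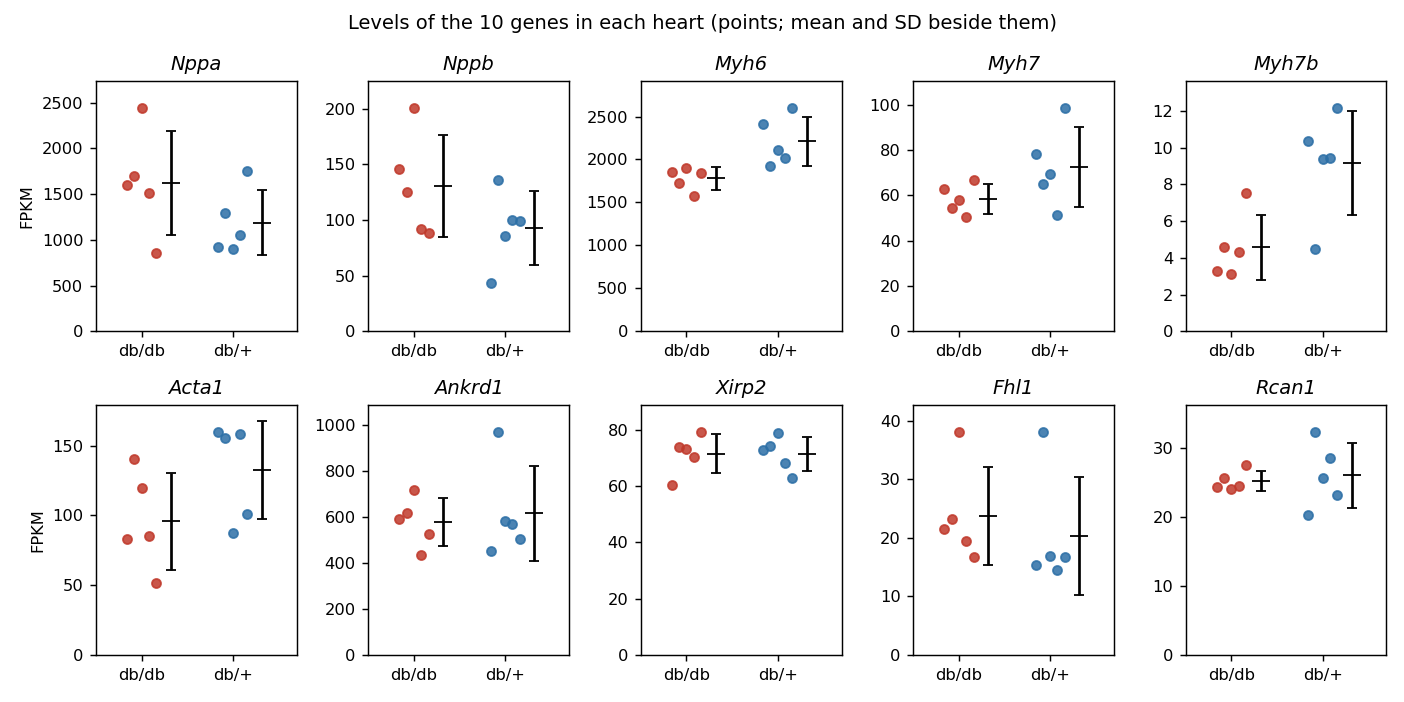
Expression of the 10 genes in FPKM (linear axis from 0) in 5 db/db hearts and 5 db/+ hearts. Points are hearts in the order of their numbers, and the bar beside them is the mean with its SD. Only for Myh6 do the genotypes stand apart at the deposited scaling, with 1578 to 1899 FPKM in db/db hearts and 1918 to 2602 FPKM in db/+ hearts.

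**Figure D2:**
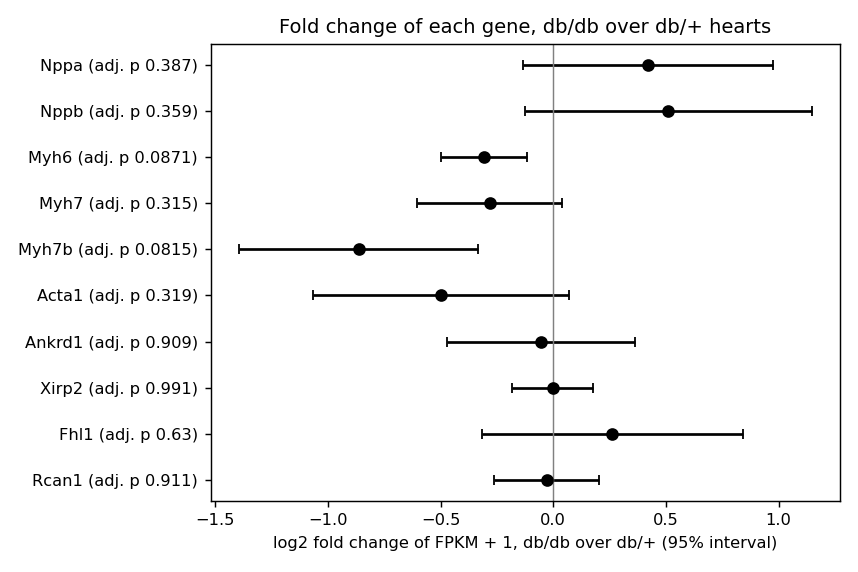
Log2 fold change of FPKM + 1, db/db over db/+, with its 95% interval from limma, for each gene, with the p adjusted over all tested genes beside the name. The intervals of Myh6 and Myh7b lie below 0 and the other 8 include 0. No adjusted p is under 0.05.

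Nppa encodes the precursor of atrial natriuretic peptide and is the more abundant of the natriuretic peptide transcripts. It had 1599, 1695, 2444, 1509 and 858 FPKM in db/db hearts 1 to 5, against 925, 1299, 897, 1051 and 1755 FPKM in db/+ hearts 1 to 5. In 4 of 5 db/db hearts it stood above 4 of 5 db/+ hearts, but db/db 5 had the lowest and db/+ 5 the second highest level of all 10, so the groups overlap. The means were 1621 ± 565 FPKM in db/db hearts and 1186 ± 356 FPKM in db/+ hearts (SD, n = 5 each), and the log2 fold change was 0.42 (SE 0.253, 95% interval -0.13 to 0.98, limma adjusted p = 0.387).

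Nppb encodes the precursor of B-type natriuretic peptide, which clinics measure as a sign of wall stress. It had 146, 125, 201, 91.6 and 88.7 FPKM in db/db hearts, against 43.2, 136, 85.2, 100.2 and 99.1 FPKM in db/+ hearts. The 2 highest values were in db/db hearts and the lowest was in db/+ 1, with the other values mixed. Its log2 fold change was 0.51 (SE 0.291, 95% interval -0.13 to 1.15, limma adjusted p = 0.359).

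The Nppb to Nppa ratio of FPKM was 9.14%, 7.36%, 8.22%, 6.07% and 10.3% in db/db hearts, against 4.67%, 10.5%, 9.49%, 9.53% and 5.64% in db/+ hearts. All db/db values lay within the range of the db/+ values. The mean was 8.22% ± 1.63 in db/db hearts and 7.96% ± 2.61 in db/+ hearts (SD, n = 5 each), a difference of 0.09 on the log2 scale (exact two-sided permutation p = 0.746, where 5 against 5 hearts allow no p below 0.00794). Its sign turned to -0.10 without db/db 5 and db/+ 5.

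Nppa is foremost a gene of atrial muscle in the adult, and atrial markers are therefore set beside it. All 7 tested genes of a list of 8 atrial muscle markers had a positive log2 fold change and none was called. Their sum over the 8 listed genes was 725, 618, 900.4, 718 and 492.9 FPKM in db/db hearts, against 508, 505, 447, 534 and 923 FPKM in db/+ hearts. The hearts db/db 5 and db/+ 5, which stood apart from their groups in Nppa, did so in this sum as well. With the mean log2(FPKM + 1) of the 8 listed markers as a covariate, the log2 fold change of Nppa was 0.08 (SE 0.235, limma adjusted p = 0.895). Without db/db 5 and db/+ 5, chosen after the data were seen for their peak lists and the mitochondrial share of db/+ 5, Nppa passed the threshold with a log2 fold change of 0.78 (SE 0.162, limma adjusted p = 0.0355, n = 4 each). In those 8 hearts the marker sum was 618 to 900.4 FPKM in db/db hearts and 447 to 534 FPKM in db/+ hearts, with no overlap, and the atrial light chain Myl4 was called as well (log2 fold change 0.75, adjusted p = 0.0089). Both hearts left out ran against the differences in Nppa, Myl4 and the marker sum. Leaving them out had to widen these differences, so the calls are no support for them. With only db/db 5 or only db/+ 5 left out, Nppa was not called (limma adjusted p = 0.13 and 0.24). In bulk RNA, fewer cells of a type and less RNA per cell cannot be told apart.

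The genes with a profile most like that of Nppa over the 10 hearts, by Pearson's r of log2(FPKM + 1) among 10334 other genes, were Tbc1d1, a Rab GTPase-activating protein of glucose uptake (r = 0.96), Srd5a3, a polyprenol reductase (r = 0.93), and Myl4 (r = 0.93). Among 12 tested genes that process or bind the peptides, or make, break down or respond to cyclic GMP, none was called, with a median log2 fold change of 0.05. The 4 with the smallest p were Gucy1a3, a subunit of soluble guanylate cyclase, with 4.81 ± 0.801 FPKM in db/db hearts and 3.80 ± 0.463 FPKM in db/+ hearts, the clearance receptor Npr3 (9.77 ± 2.20 and 7.54 ± 1.25 FPKM in db/db and db/+ hearts), the cyclic GMP phosphodiesterase Pde9a (1.38 ± 0.204 and 1.09 ± 0.228 FPKM in db/db and db/+ hearts) and Npr1, the guanylate cyclase receptor of both peptides (4.48 ± 0.636 and 5.33 ± 1.06 FPKM in db/db and db/+ hearts). Their adjusted p ran from 0.189 to 0.392. Without db/db 5 and db/+ 5, Npr3 was called (log2 fold change 0.52, adjusted p = 0.0241).

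Myh6 encodes alpha myosin heavy chain, the main motor of the adult mouse heart. It had 1856, 1723, 1899, 1578 and 1844 FPKM in db/db hearts, against 2416, 1918, 2110.5, 2012 and 2602 FPKM in db/+ hearts. At the deposited scaling every db/db heart was below every db/+ heart, and the nearest values were 1899 FPKM in db/db 3 and 1918 FPKM in db/+ 2. This narrow separation is lost with library medians set equal. The median over tested genes was 4.54 FPKM in db/db 5 and 4.98 FPKM in db/+ 2, so that scaling puts db/db 5 above db/+ 2. The means were 1779.9 ± 130.6 FPKM in db/db hearts and 2212 ± 287 FPKM in db/+ hearts (SD, n = 5 each), a linear ratio of 0.805. On the log2 scale the fold change was -0.31 (SE 0.0878, 95% interval -0.50 to -0.11), and it missed the threshold (limma adjusted p = 0.0871).

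Myh7 encodes beta myosin heavy chain, the slow motor of the fetal mouse ventricle. It had 62.9, 54.4, 57.7, 50.2 and 66.7 FPKM in db/db hearts, against 78.3, 65.1, 69.4, 51.3 and 98.6 FPKM in db/+ hearts. The 3 highest values were in db/+ hearts, and db/+ 2 and db/+ 4 lay within the range of the db/db values. The log2 fold change was -0.28 (SE 0.147, 95% interval -0.60 to 0.04, limma adjusted p = 0.315). Myh6 and Myh7 are near-identical over long stretches and how shared reads were counted is not given, so the split of such reads between them is uncertain. A long noncoding RNA antisense to Myh7 is known in mouse, and whether the counting used strand is not given either.

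The Myh7 to Myh6 ratio of FPKM, which does not depend on the scaling of a library, was 3.39%, 3.16%, 3.04%, 3.18% and 3.62% in db/db hearts, against 3.24%, 3.39%, 3.29%, 2.55% and 3.79% in db/+ hearts. All db/db values lay within the range of the db/+ values. The mean was 3.28% ± 0.228 in db/db hearts and 3.25% ± 0.449 in db/+ hearts (SD, n = 5 each), a difference of 0.02 on the log2 scale (SE 0.104, exact two-sided permutation p = 0.889). With Myh7b added to Myh7 the difference was -0.05 (exact p = 0.651), and it was -0.02 without db/db 5 and -0.07 without db/+ 4. No shift of the beta to alpha balance was detectable with 5 hearts in each group.

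Myh7b encodes a slow-tonic myosin heavy chain and hosts miR-499. It had 3.27, 4.61, 3.13, 4.31 and 7.54 FPKM in db/db hearts, against 10.4, 4.51, 9.40, 9.42 and 12.2 FPKM in db/+ hearts. Apart from db/+ 2, which stood at the db/db level, every db/+ heart was above every db/db heart. The means were 4.57 ± 1.78 FPKM in db/db hearts and 9.17 ± 2.84 FPKM in db/+ hearts (SD, n = 5 each), a linear ratio of 0.498. On the log2 scale the fold change was -0.86 (SE 0.243, 95% interval -1.39 to -0.33, limma adjusted p = 0.0815). Leaving out db/+ 2 gave -1.07 (adjusted p = 0.0186) and leaving out db/db 5 gave -1.03 (adjusted p = 0.0358), both past the threshold. The summed level of 6 fibroblast markers was 219, 235, 227, 230.5 and 176 FPKM in db/db hearts, against 176, 211, 160.3, 168 and 180.2 FPKM in db/+ hearts. The same hearts stood apart in this sum, db/db 5 as the lowest of its group and db/+ 2 as the highest of its group. Most of the sum was Dcn and Lum. Of the 6 markers 4 had a positive log2 fold change, while Col1a1 (-0.12) and Col1a2 (-0.10) had a negative one. Over the 10 hearts Myh7b had a Pearson r of -0.88 with this sum, 0.84 with that of ventricular muscle markers and 0.70 with that of adipocyte markers. The part of any of these markers in the Myh7b difference was not tested.

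The Myh7b to Myh7 ratio, looked at after the levels were seen, was 5.19%, 8.48%, 5.42%, 8.59% and 11.3% in db/db hearts, against 13.3%, 6.92%, 13.5%, 18.4% and 12.3% in db/+ hearts. The groups overlap only through db/+ 2. The means were 7.80% ± 2.54 in db/db hearts and 12.9% ± 4.08 in db/+ hearts (SD, n = 5 each, exact two-sided permutation p = 0.0794).

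**Figure D3:**
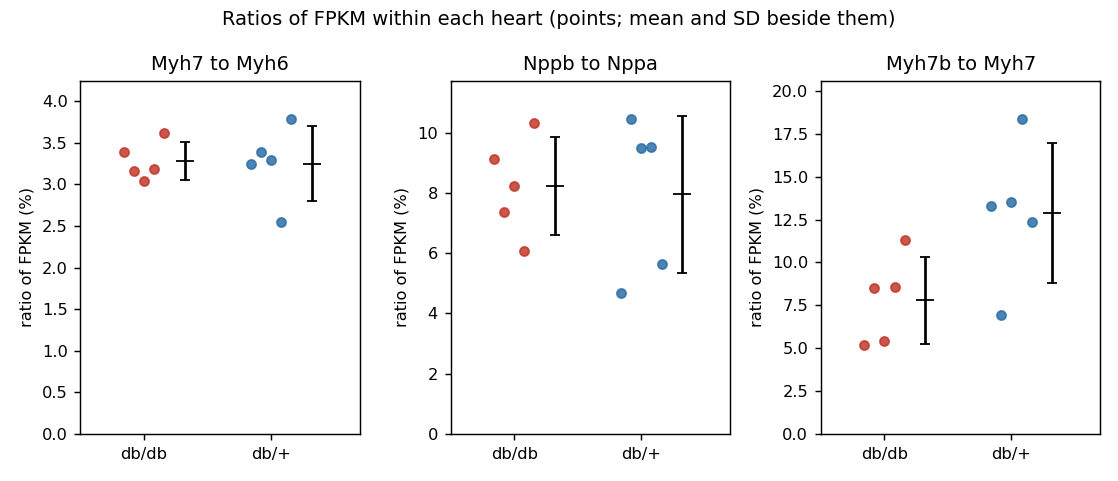
Ratios of FPKM within each heart in percent (linear axes from 0) for Myh7 to Myh6, Nppb to Nppa and Myh7b to Myh7, in 5 db/db hearts and 5 db/+ hearts. Points are hearts and the bar beside them is the mean with its SD. The genotypes overlap in the first 2 panels, and in the third 4 of 5 db/+ hearts lie above all db/db hearts.

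Acta1 encodes skeletal alpha-actin, an actin isoform that the fetal heart expresses. It had 83.2, 141, 119, 85.3 and 51.3 FPKM in db/db hearts, against 160.2, 156, 87.5, 158 and 101 FPKM in db/+ hearts. The 3 highest values were in db/+ hearts and the 3 lowest in db/db hearts. Its log2 fold change was -0.50 (SE 0.260, 95% interval -1.07 to 0.07, limma adjusted p = 0.319). The genes with the most similar profiles were the cohesin subunit Rad21 (r = 0.95), the O-glucosyltransferase Poglut1 (r = 0.94) and Ppil2, a cyclophilin-like ubiquitin ligase (r = 0.92), over the 10 hearts. For Myh7 they were Rrp15, a ribosome assembly factor (r = 0.94), Ndufaf7, an assembly factor of respiratory complex I (r = 0.93), and Mettl22 (r = 0.92). As for Nppa, these genes were picked as the highest r among 10334 genes over only 10 hearts, and no test was run on them.

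Among 14 tested genes of other sarcomere isoforms, 3 fell and none rose, with a median log2 fold change of 0.02. Lower calls made up 1.72% of all tested genes. The falls were Tnnt1, slow skeletal troponin T, with 2.26 ± 0.407 FPKM in db/db hearts and 4.95 ± 1.04 FPKM in db/+ hearts (log2 fold change -0.86, SE 0.127, limma adjusted p = 0.00599), Myl3, the ventricular essential light chain (1016 ± 79.8 and 1304 ± 82.1 FPKM in db/db and db/+ hearts, adjusted p = 0.0176), and Myl2, the ventricular regulatory light chain (1421 ± 85.6 and 1839.8 ± 246 FPKM in db/db and db/+ hearts, adjusted p = 0.0466). Of the 10 fits that left out a heart, Tnnt1 was called in 10, Myl3 in 9 (all but the fit without db/db 3) and Myl2 in 2 (without db/+ 2 and without db/+ 5). With library medians set equal, Tnnt1 alone of these 3 was called. Myl1, an essential light chain of fast skeletal muscle, had 31.0 ± 5.52 FPKM in db/db hearts and 21.4 ± 4.34 FPKM in db/+ hearts (adjusted p = 0.0951). Without db/db 5 and db/+ 5, 7 genes of the 6 lists of related genes were called in place of 3: Tnnt1, Myl2, Myl3 and Trim63 lower, and Myl1, Myl4 and Npr3 higher in db/db hearts.

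Beside Myh6, the summed level of 5 ventricular muscle markers, which include Myl2 and Myl3, was 2330.4 to 2706 FPKM in db/db hearts and 2844 to 3751 FPKM in db/+ hearts. These ranges do not overlap at the deposited scaling, and most of that sum was Myl2 and Myl3. Of the other 3 markers, which were not called, Irx4 had a log2 fold change of -0.14, Hey2 one of 0.10 and Lbh one of 0.20. The cardiomyocyte marker Mybpc3 fell (log2 fold change -0.33, SE 0.0619, adjusted p = 0.0186). The other 5 cardiomyocyte markers had negative log2 fold changes and were not called. The part of these shifts in the Myh6 difference was not tested. With library medians set equal, which changes only the scaling, Myh6 had a log2 fold change of -0.27 (adjusted p = 0.16), and after quantile normalization one of -0.20 (adjusted p = 0.245).

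Regulators of the myosin switch showed no call among 11 tested genes (median log2 fold change 0.04). The 4 with the smallest p were Tead3, a factor of the M-CAT sequence shown above (2.12 ± 0.127 and 2.59 ± 0.217 FPKM in db/db and db/+ hearts, with no overlap), the chromatin remodeller Smarca4 (7.89 ± 0.506 and 8.90 ± 0.695 FPKM), the thyroid hormone receptor Thrb (1.56 ± 0.549 and 2.16 ± 0.483 FPKM) and the deiodinase Dio2 (1.46 ± 0.490 and 1.06 ± 0.409 FPKM), each given for db/db and then db/+ hearts. Their adjusted p ran from 0.124 to 0.375.

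Ankrd1, a stretch-responsive ankyrin repeat protein that binds titin in the I-band and also acts in the nucleus, had 592, 618, 717, 435 and 527 FPKM in db/db hearts, against 451, 969.8, 582, 567 and 502 FPKM in db/+ hearts. Both the highest value, in db/+ 2, and the next to lowest were in db/+ hearts, and the groups overlap fully but for db/+ 2 and db/db 4. The log2 fold change was -0.05 (SE 0.190, 95% interval -0.47 to 0.36, limma adjusted p = 0.909) and became 0.12 without db/+ 2.

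Fhl1, a LIM protein that is part of a stretch sensor at titin, had 21.4, 23.2, 38.2, 19.4 and 16.8 FPKM in db/db hearts, against 15.3, 38.2, 16.8, 14.4 and 16.7 FPKM in db/+ hearts. Apart from db/+ 2, the db/+ values lay next to or below the lowest db/db value. Its log2 fold change was 0.26 (SE 0.265, 95% interval -0.32 to 0.84, limma adjusted p = 0.63), and without db/+ 2 it was 0.51 with an adjusted p of 0.186.

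Xirp2, an actin-binding protein of the intercalated disc and Z-disc, had the smallest ratio of highest to lowest heart among the 10 genes, 1.31. It had 60.6, 73.9, 73.1, 70.4 and 79.4 FPKM in db/db hearts, against 72.8, 74.4, 79.0, 68.3 and 63.0 FPKM in db/+ hearts. The highest and the lowest value were both in db/db hearts, and the log2 fold change was -0.0018 (SE 0.0821, 95% interval -0.18 to 0.18, limma adjusted p = 0.991).

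Rcan1, an inhibitor of calcineurin whose short isoform is itself a transcript induced by calcineurin, had 24.3, 25.7, 24.0, 24.5 and 27.5 FPKM in db/db hearts, against 20.3, 32.4, 25.7, 28.5 and 23.2 FPKM in db/+ hearts. All db/db values lay within the range of the db/+ values. The log2 fold change was -0.03 (SE 0.107, 95% interval -0.26 to 0.21, limma adjusted p = 0.911). The table gives 1 value for the gene and does not split its isoforms.

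Related genes of these pathways gave no further call. Among 18 tested genes of calcineurin, NFAT and MEF2 signalling the median log2 fold change was -0.02, and the 4 with the smallest p were the deacetylase Hdac4 (0.998 ± 0.0881 and 1.39 ± 0.230 FPKM in db/db and db/+ hearts, with no overlap), the calcineurin catalytic subunit Ppp3cc (8.85 ± 0.833 and 10.4 ± 0.546 FPKM), Gata6, a factor of the GATA sequences shown above (17.5 ± 0.994 and 15.5 ± 0.356 FPKM, with no overlap), and Hdac9 (1.04 ± 0.280 and 1.44 ± 0.330 FPKM), again with db/db hearts before db/+ hearts. Among 19 tested partners of titin and the Z-disc the median was -0.04 and the gene with the smallest p was the leiomodin Lmod2 (266 ± 32.9 and 335 ± 30.9 FPKM in db/db and db/+ hearts, with no overlap, adjusted p = 0.081), followed by the muscle ubiquitin ligase Trim63, the calsarcin Myoz2 and alpha-actinin, Actn2, which were all lower on average in db/db hearts. Among 18 tested load-induced genes the median was -0.10, and the 4 with the smallest p were Tnfrsf12a, the receptor of TWEAK (35.0 ± 5.87 and 24.2 ± 4.87 FPKM, with no overlap), the intermediate filament desmin, Des (268 ± 6.19 and 317 ± 34.8 FPKM, with no overlap), the small heat shock protein Hspb1 (117 ± 14.2 and 155 ± 28.1 FPKM) and Jun (12.7 ± 1.55 and 15.1 ± 2.64 FPKM), with db/db hearts given before db/+ hearts. Hspb1 was called without db/+ 1 (log2 fold change -0.51, adjusted p = 0.0307), and Trim63 and Myl1 without db/db 5 (adjusted p = 0.0373 and 0.0344).

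Over the 10 hearts the 10 genes form 45 pairs, and 22 of them had a positive Pearson r. None of the 45 passed a permutation test after adjustment over the pairs, while 9 had an unadjusted p under 0.05 by Pearson's r. The closest pair was Myh6 and Myh7 (Pearson r = 0.86, adjusted permutation p = 0.0625, Spearman rho = 0.73, adjusted permutation p = 0.202), and r was 0.85 for deviations from the genotype means and 0.56 without db/+ 1 and db/+ 5, the hearts farthest from the median. That pair passed the threshold without db/+ 4 (r = 0.95, adjusted p = 0.0026), without db/+ 2 (r = 0.87, adjusted p = 0.0499) and with library medians set equal (r = 0.86, adjusted p = 0.0462). How reads shared by Myh6 and Myh7 were counted is not given, and their part in this r was not tested. Nppa and Nppb had r = 0.74 (adjusted permutation p = 0.0753, rho = 0.72, adjusted permutation p = 0.202), with 0.67 for deviations from genotype means and 0.64 without db/db 3 and db/db 5.

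The stretch genes Ankrd1 and Fhl1 had r = 0.82 (adjusted permutation p = 0.0625, rho = 0.75, adjusted permutation p = 0.202) and kept 0.83 without the 2 farthest hearts, db/+ 2 and db/db 4. Nppb went with both of them, with r = 0.75 for Fhl1 and r = 0.67 for Ankrd1 (adjusted permutation p = 0.0625 and 0.22). Myh7b ran against Fhl1 (r = -0.76, adjusted permutation p = 0.0625, rho = -0.81) and Nppb (r = -0.73, adjusted permutation p = 0.0625, rho = -0.68), and with Myh6 (r = 0.76, rho = 0.71, adjusted permutation p = 0.0625 by r), where deviations from the genotype means gave 0.47. The pair of Myh7b and Fhl1 passed without db/+ 2 (r = -0.80, adjusted p = 0.0499) and with medians set equal, where Myh7b and Nppb passed too (r = -0.76, adjusted p = 0.0462). The pair of Ankrd1 and Rcan1 had r = 0.69 (adjusted permutation p = 0.188), and r = 0.39 without db/+ 2 and db/db 4.

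**Figure D4:**
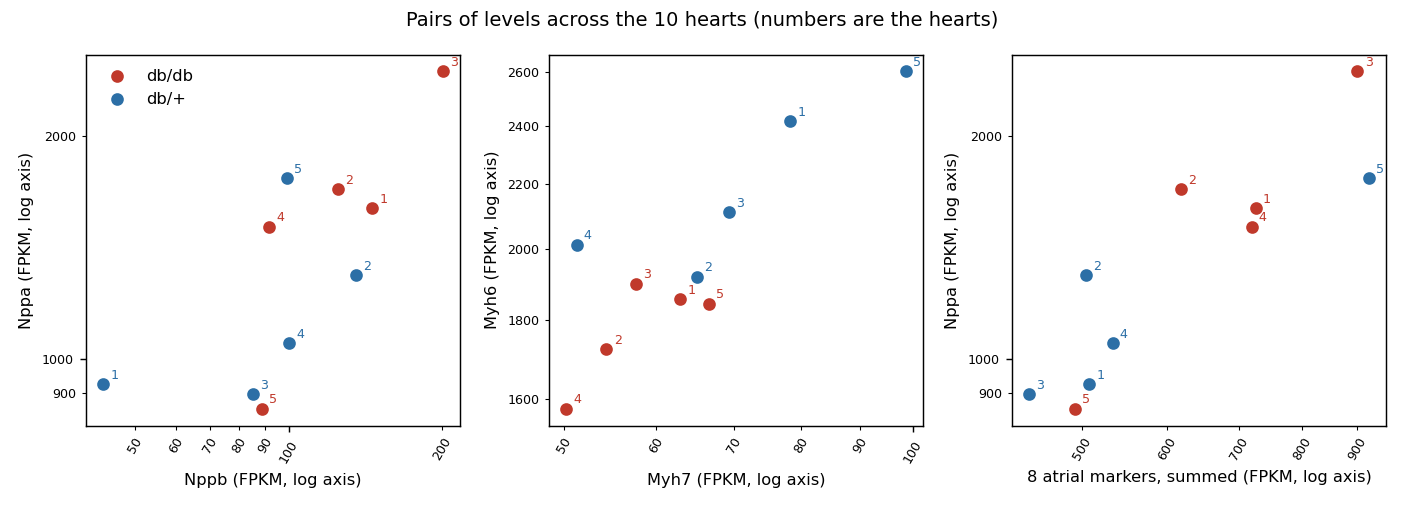
Levels in the 10 hearts, each point a heart with its number, db/db and db/+ in 2 colours, all axes FPKM on a log scale: Nppa against Nppb, Myh6 against Myh7, and Nppa against the summed level of 8 atrial muscle markers. In the third panel db/db 5 (492.9 FPKM for the markers) lies among the db/+ hearts and db/+ 5 (923 FPKM) at the end of the db/db hearts.

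The m6A marks were read from the authors' peak lists, which were called heart by heart. Merged over hearts, the peaks gave 15747 regions, of which 18 lay on 8 of the 10 genes, and Nppb and Acta1 had no listed peak in any heart. Among all tested genes 27.3% had no listed peak. Peaks were found in all 10 hearts on Ankrd1, Myh6, Myh7, Myh7b, Rcan1 and Xirp2, as on 20.2% of tested genes, and 9 of the 18 regions were present in all 10 hearts, against 14.4% of all regions. A region differed by the rule used here where 4 or more hearts of a genotype had a peak in it and no more than 1 heart of the other genotype did. That held for 1 of the 18 and for 1.69% of all regions. No region passed Fisher's exact test after adjustment over all regions (smallest adjusted p = 1, with 106 regions at an unadjusted p under 0.05). The smallest unadjusted p was 0.00794, the lowest that this test can give for these 10 hearts. Over 15747 regions a region could therefore not pass on its own, however its peaks were split. The adjusted p thus cannot decide whether a single region differs.

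On Myh6 a region of coding and 3′ untranslated sequence at chr14:54941921-54956526 had a peak in all 10 hearts. It covered 55.9% to 56.4% of the longest listed transcript (6113 bases) in db/db hearts and 55.4% to 56.4% in db/+ hearts, and the authors' highest peak fold over input in it was 3.22 to 4.94 over the hearts. On Myh7 the matching region, chr14:54970684-54984634, also had a peak in all 10 hearts, with folds of 3.2 to 7.63. With the smaller Myh7 regions, 45.8% to 55.8% of the longest transcript (6230 bases) lay under a peak in db/db hearts and 40.0% to 55.3% in db/+ hearts. In 5 hearts the peaks of Myh6 and Myh7 held the same 17 exon block lengths in a row, 3111 bases in all, and how reads common to the tandem genes were placed is not given.

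The differing region was the third on Myh7, coding sequence at chr14:54990765-54991899. It had a peak in 0 of 5 db/db hearts and in 4 of 5 db/+ hearts. The unadjusted Fisher's exact p of this region was 0.0476, and the adjusted p cannot decide, as stated above. Its folds were low, with 1.60, 2.13, 2.66 and 1.91 in db/+ hearts 1, 3, 4 and 5, and it no longer counted as differing among peaks with a fold of at least 2. Leaving out any of these 4 hearts takes it below the limit of the rule, as happened without db/db 5 and db/+ 5. The second Myh7 region, chr14:54989291-54990370, was present in all 10 hearts, and the fourth, chr14:54992291-54992762, in db/db 1 and db/+ 2.

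Myh7b had 4 regions. The first, coding sequence at chr2:155627682-155630548, had a peak in all 10 hearts with folds of 3.63 to 10.2. The third, chr2:155631067-155632481, and the fourth, chr2:155632511-155634247 with the 3′ untranslated end, had one in 4 db/db and 5 db/+ hearts each, and the second, chr2:155630725-155630874, in db/db 2 alone. Peaks covered 20.5%, 17.5%, 18.5%, 21.4% and 19.99% of the longest transcript (6163 bases) in db/db hearts, against 34.5%, 12.2%, 37.4%, 36.9% and 21.4% in db/+ hearts. The heart with the lowest share among db/+ hearts, db/+ 2, was also the lowest of that group in Myh7b FPKM. The heart with the highest Myh7b level, db/+ 5 (12.2 FPKM), had the next lowest share of that group, 21.4%. How far the share follows the level was not tested.

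Ankrd1 had the densest cover. Its regions at chr19:36111965-36112742 (coding and 3′ untranslated) and chr19:36114991-36119844 (5′ untranslated and coding) were present in all 10 hearts and took 74.7% to 88.2% of the transcript (1765 bases) in db/db hearts and 83.1% to 88.3% in db/+ hearts. Xirp2 had 4 regions, of which the one at chr2:67508310-67516215, within coding sequence, held 6878 to 7584 bases under peaks in db/db hearts and 7432 to 7851 bases in db/+ hearts. The region with the 3′ untranslated end, chr2:67525057-67526614, was present in all 10 hearts as well, the one at chr2:67516545-67516909 in 4 hearts of each genotype, and the one at chr2:67482363-67505542 in 2 db/db and 4 db/+ hearts. Rcan1 had a region at chr16:92392989-92393611, the end of the coding sequence and the start of the 3′ untranslated part, in all 10 hearts with folds of 3.17 to 5.78.

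Nppa, second in level only to Myh6, had a single weak region in its 3′ untranslated part, chr4:148001930-148002079, in 3 hearts of each genotype, with folds of 1.13 to 1.38 in db/db 1, 4 and 5 and db/+ 2, 4 and 5. Fhl1 had a region at the 3′ end, chrX:56793219-56793346, in no db/db heart and in db/+ 2, 4 and 5 (unadjusted Fisher's exact p = 0.167). Peaks thus did not follow the order of the levels: Nppa had a weak region and Acta1 none, at mean levels above that of Myh7, which had 4 regions. The transcripts differ in length, with 865 bases for Nppa and 6230 bases for the longest of Myh7, and length was not taken into account.

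**Figure D5:**
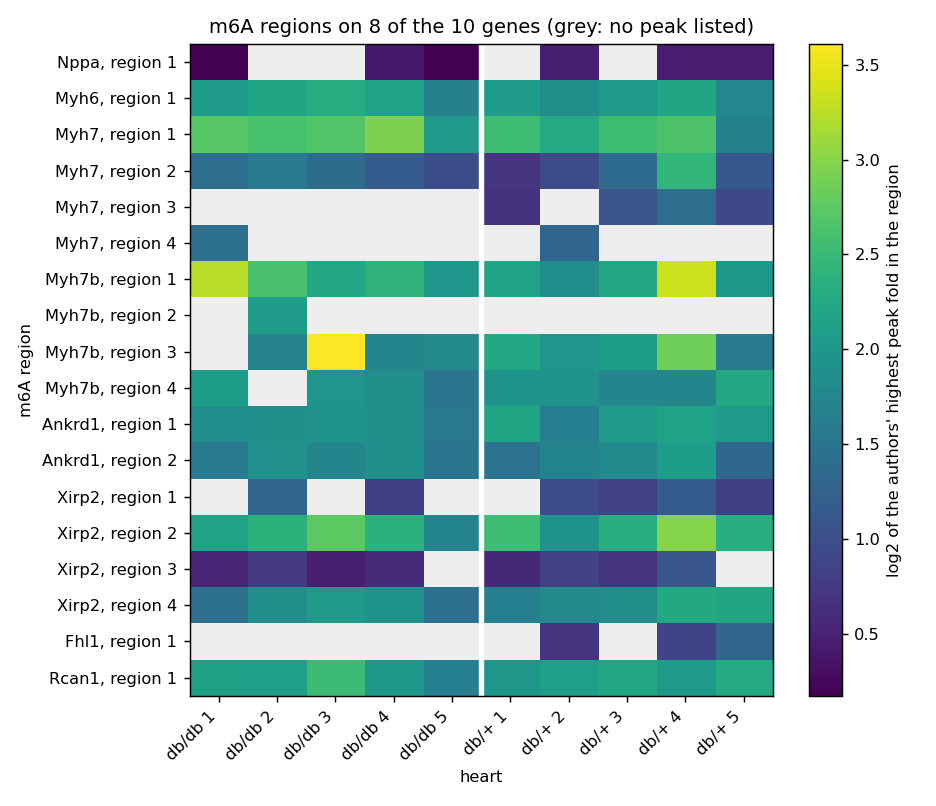
The 18 m6A regions on 8 genes (rows) in 5 db/db hearts and 5 db/+ hearts (columns). Colour is the log2 of the authors' highest peak fold in the region, and grey means that no peak is listed. Myh7 region 3 is grey in all db/db hearts and filled in 4 db/+ hearts, and 9 rows are filled in all 10 hearts.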

How the data were processed

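RNA of 10 hearts, 5 db/db and 5 db/+, was sequenced as input and after m6A pull-down. Per the labels' protocols, hearts were frozen, RNA was taken with Trizol, poly(A) RNA was isolated and libraries came from a stranded KAPA kit. Per the submitters' processing notes, HISAT2 2.1.0, Trimmomatic 0.32, FastQC 0.11.7 and the build mm9 were used, with no roles stated. Neither the peak caller nor the program behind the expression values is named by these sources. For 11856 genes the table of expression gives FPKM as deposited. Its header names the animals and not the kind of library, and the values were taken as those of the input libraries. The peak lists give, per the file headers, a fold (a ratio over input) and a p-value made by the authors for each peak, called per heart. They were used only to describe or filter peaks. Positions fit GRCm38: of 11500 genes matched to RefSeq by symbol and chromosome, 89.9% had a start or end within 50 bp, all 10 reported genes among them. Positions are counted from 1.

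The genes and lists were chosen with earlier results of these data known. Where the mean was 1 FPKM or more, a gene was tested by limma 3.58.1 (R 4.3.3, moderated with a mean-variance trend), fitted to log2(FPKM + 1) as db/db minus db/+, and called at an adjusted p under 0.05. The pseudocount understates changes of low genes. The table carries no counts, so no count test was run. For ratios, an exact two-sided permutation test took all assignments of 5 against 5 hearts. Correlations used 100000 permutations, adjusted over 45 pairs. Peaks became a region where their exon blocks shared 1 bp or more of a strand. There were 6 lists of related genes and 10 of cell markers (heart muscle, atrial and ventricular muscle, skeletal and smooth muscle, fibroblast, endothelial, macrophage, lymphocyte and adipocyte). By rule, all 10 genes, their regions, up to 4 genes with the smallest p of each related list, and the 3 closest profiles to Nppa, Myh7 and Acta1 are named. Mybpc3, single cell markers and genes called under an alternative were named after their values were seen. Alternatives were other pseudocounts, filters and scalings, a replicate block, an atrial covariate and leaving out hearts. Python 3.11.15 with scipy 1.17.1 was used for the rest, and scripts were tested on simulated data. The animals are separate samples in the labels, and the tests take these hearts as the replicates.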

Additional observations from a re-analysis of the deposited data

Results flagged for a closer look

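In 3 of the 30 sets of 5 values checked (the 10 genes and 5 ratios in each genotype), 1 heart stood far from the other 4, with a gap to the nearest of over 0.71 of the whole range, a limit that chance passes in about 1 in 20 sets. All 3 concern db/+ 2. Its Ankrd1 level was 969.8 FPKM, against 451 to 582 FPKM in the other db/+ hearts. Its Fhl1 level was 38.2 FPKM, against 14.4 to 16.8 FPKM in the other db/+ hearts. Its Myh7b to Myh6 ratio was 0.235%, against 0.43% to 0.468% in the other db/+ hearts. The 3 values come from the same library and are not independent.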

How the results depend on the processing

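The expression table gives no counts, so the depth behind each value is unknown and low genes such as Myh7b carry an error that cannot be set from it. Each of the 10 genes was refitted under 21 other settings: 190 of the 210 fits gave the same direction and call, 3 passed the threshold (Myh7b without db/+ 2 or db/db 5, and Nppa without db/db 5 and db/+ 5) and 17 turned sign, all for Ankrd1, Xirp2 or Rcan1, whose log2 fold changes lie near 0. The turned values were 0.0336 for Xirp2 and 0.0052 for Rcan1 with library medians set equal, 0.0326 and 0.0041 without the mitochondrial genome, and 0.0378 for Xirp2 after quantile normalization. With the atrial covariate they were 0.0391 for Ankrd1, 0.068 for Xirp2 and 0.0799 for Rcan1. Leaving out a heart gave -0.15 to 0.12 for Ankrd1, -0.0457 to 0.0557 for Xirp2 and -0.11 to 0.0512 for Rcan1. The cause was not tested.

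All genes called numbered 311 in the reported fit, 84 with the atrial covariate, and 112 (without db/db 3) to 317 (without db/+ 5) when a heart was left out; the counts were 128 without db/db 1, 153 without db/db 2, 173 without db/db 4, 133 without db/+ 3 and 166 without db/+ 4. A replicate block gave 72 calls and called none of the 10 genes. The labels do not say that the replicate numbers pair animals, and same-numbered hearts did not deviate together (correlations of -0.11 to 0.03), so the block was not used. Of the 10 genes, 0 to 1 was called when a heart was left out, and 1 without db/db 5 and db/+ 5. Related genes called numbered 3 in the reported fit, 1 with library medians set equal, 7 without db/db 5 and db/+ 5 and 1 to 4 when a heart was left out.

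The log2 difference of the Myh7 to Myh6 ratio ranged from -0.0651 to 0.0781 when a heart was left out and was -0.0461 with Myh7b added. That of the Nppb to Nppa ratio ranged from -0.0794 to 0.21, and was -0.10 without db/db 5 and db/+ 5. Correlated pairs numbered 3 with library medians set equal and 0 to 2 when a heart was left out. Differing m6A regions numbered 172 among peaks with a fold of at least 4, where a region of Ankrd1 and not that of Myh7 differed, and 203 to 350 when a heart was left out. The limits of 4 and 1 hearts in the rule were kept when a heart was left out, which fixes some outcomes in advance. The Myh7 region had peaks only in db/+ 1, 3, 4 and 5, so it could not differ once any of them was left out. A Xirp2 region had peaks in db/db 2 and 4 and in 4 db/+ hearts, so it had to differ without db/db 2 or db/db 4.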
